A study of Mus musculus with 6 samples.

Results

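Haematopoietic stem cells (HSCs) reach and keep their place in the bone marrow through a small group of surface receptors, and 10 of these genes were followed here. They were *Cxcr4*, *Itga4*, *Itga6*, *Itgb1*, *Itgal*, *Itgb2*, *Selplg*, *Cd44*, *Jam3* and *Robo4*, chosen by name, and each had a row among the 46959 rows of the expression table. RNA sequencing compared HSCs of control mice with HSCs of mice in which *Maea*, a subunit of an E3 ubiquitin ligase, was deleted with Csf1r-Cre, 3 libraries a group. The comparison asks which transcripts differ in HSCs of mice with this deletion. It does not measure the receptor proteins, whose ubiquitination is the subject of the study.

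The mice were young adults, and about 2000 HSCs sorted from the bone marrow went into each library, pooled from a pair of mice per library. The HSCs were CD150+ CD48- cells among lineage- Sca-1+ c-kit+ bone marrow cells. The MaeaCsf1r-Cre mice carried loxP-flanked *Maea* and the Csf1r-iCre transgene, which is used to target mononuclear phagocytes and also recombines in HSCs, so their macrophages lacked *Maea* too. The labels name the other group only as control, without the alleles it carried, and the paper describes these HSCs as littermate controls. The Csf1r-iCre mice had been backcrossed to C57BL/6.

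In outline, CXCR4 is the receptor for the chemokine CXCL12 and draws HSCs to the marrow stroma. Integrins are pairs of an alpha and a beta chain, and signals from within the cell can raise their binding. Alpha4 beta1 (VLA-4, from *Itga4* and *Itgb1*) binds VCAM-1 and fibronectin, alpha6 beta1 (VLA-6, from *Itga6* and *Itgb1*) binds laminin, and alphaL beta2 (LFA-1, from *Itgal* and *Itgb2*) binds ICAMs. *Selplg* encodes PSGL-1, which lets cells roll on selectins once it is glycosylated, and *Cd44* encodes a hyaluronan receptor. *Jam3* encodes the junctional adhesion molecule JAM-C, which binds JAM-B. *Robo4* encodes a roundabout receptor found on endothelium and on HSCs.

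Values are CPM, reads scaled to the same total in each library. The reads behind this scaling, worked out from the steps between low values, numbered 32906000 to 39548000 in control and 44082000 to 60866000 in MaeaCsf1r-Cre libraries, so a signal of 3 reads was 0.0493 to 0.0912 CPM (counting error only). *Maea* itself was at 108, 116 and 123 CPM in control replicates 1, 2 and 3 and at 76.9, 88.6 and 101 CPM in MaeaCsf1r-Cre replicates 1, 2 and 3, lower in every MaeaCsf1r-Cre library. The ratio of the means was 0.767, and the difference did not pass in the test given below (limma adjusted p = 0.967). The values count all reads of the gene and so do not show which *Maea* exons were present. *Csf1r*, the gene whose promoter drives the Cre, was at 7.89, 3.39 and 2.31 CPM in control and 0.369, 2.18 and 0.141 CPM in MaeaCsf1r-Cre replicates 1, 2 and 3. All 10 HSC markers examined were expressed, with *Kit* at 393 to 700 CPM. Libraries also differed by replicate number in both groups, and the 8 erythroid markers summed to 4156 CPM in control and 4505 CPM in MaeaCsf1r-Cre replicate 1 against 909 to 2065 CPM in the other 4 libraries. The p-values measure the spread between these pools, 3 a group.

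All 10 receptor genes were expressed in all 6 libraries, the lowest value being 2.43 CPM for *Jam3*. Each gene was tested with limma on log2(CPM + 1), with p-values adjusted by the Benjamini-Hochberg method over 12955 genes that reached 1 CPM in at least 3 libraries. None of the 10 had an adjusted p under 0.05. Their adjusted p ranged from 0.967 to 0.981, and from 0.266 to 0.908 with the replicate number as a block, while 0.00772% of all genes tested, a single gene, passed in either fit. *Itgb2* alone had an unadjusted p under 0.05, against 3.99% of all genes tested (0.803% higher and 3.19% lower in MaeaCsf1r-Cre HSCs). With the block *Itgb2* and *Jam3* did, against 13.9% (3.11% higher and 10.8% lower). *Itgb2* was also the only one of the 10 whose groups did not overlap, where 8.55% of all genes tested did not (2.49% higher and 6.06% lower in every MaeaCsf1r-Cre library). The mean was lower in MaeaCsf1r-Cre HSCs for the other 9, as the fitted difference was for 60.9% of all genes tested, with 39.1% above 0. The median log2 fold change of the 10 was -0.15, beside -0.058 over all genes tested.

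**Figure D1:**
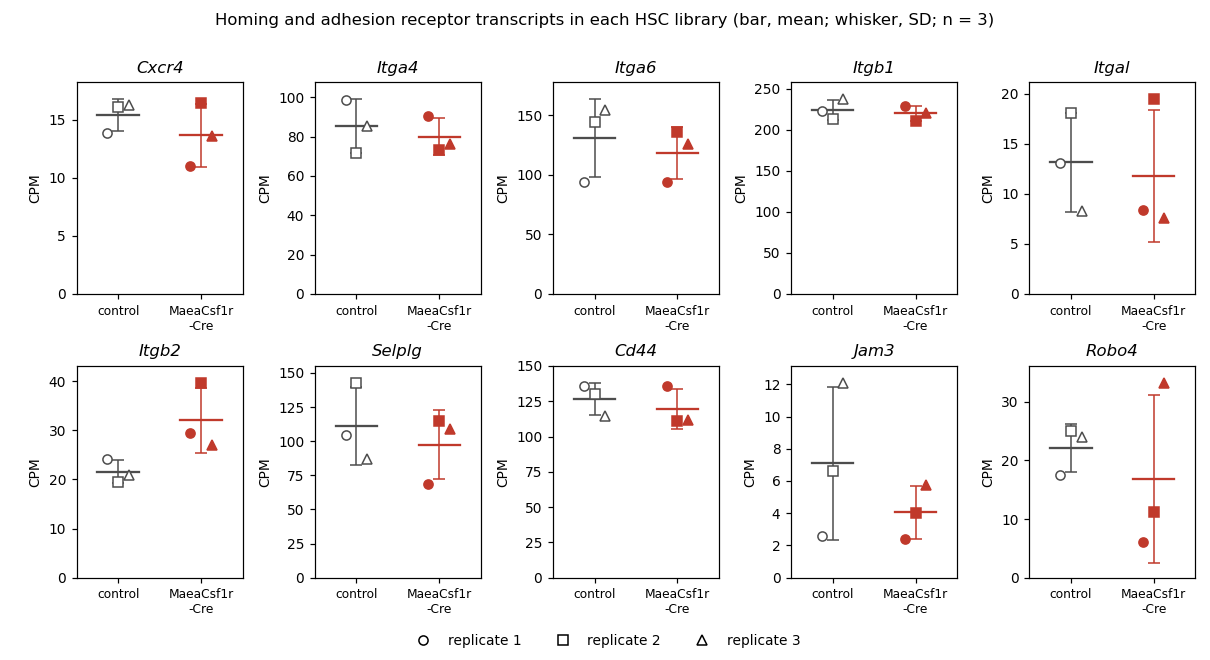
CPM of the 10 receptor genes in 3 control (open symbols) and 3 MaeaCsf1r-Cre (filled symbols) HSC libraries, with the shape giving the replicate number, a bar for the mean and a whisker for the SD (n = 3 each). The groups do not overlap for *Itgb2* (19.5 to 24.1 against 27.0 to 39.6 CPM) and overlap for the other 9 genes.

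The chemokine receptor gene *Cxcr4* (GRCm38 chromosome 1, 128588199 to 128592293, minus strand) was at 13.8, 16.1 and 16.2 CPM in control replicates 1, 2 and 3. In MaeaCsf1r-Cre replicates 1, 2 and 3 it was at 10.995, 16.4 and 13.6 CPM. The highest value of the 6 was a MaeaCsf1r-Cre library and so was the lowest, and in both groups replicate 1 was lowest. The means were 15.4 ± 1.36 and 13.7 ± 2.72 CPM (SD, n = 3 each), and the fitted log2 difference was -0.17 (95% interval -0.62 to 0.27, adjusted p = 0.967 from limma). The interval runs from 0.652-fold to 1.21-fold of control, a span these libraries could not narrow.

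*Itgb1*, the beta chain shared by VLA-4 and VLA-6, lies on chromosome 8 (128685654 to 128733200, plus strand). It was at 223, 213 and 237 CPM in control and 229, 211 and 220 CPM in MaeaCsf1r-Cre replicates 1, 2 and 3. This was the steadiest of the 10 genes, with the highest library 1.12 times the lowest. Its log2 fold change was -0.028 (95% interval -0.27 to 0.22, adjusted p = 0.981 from limma), and its sign turned after rescaling by median ratios and after correction for transcript length.

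*Itga4* (chromosome 2, 79255426 to 79333123, plus strand), the alpha chain of VLA-4, was at 98.8, 71.8 and 85.6 CPM in control and 90.6, 73.1 and 76.4 CPM in MaeaCsf1r-Cre replicates 1, 2 and 3. *Itga6* (chromosome 2, 71745616 to 71858416, plus strand), the alpha chain of VLA-6, was at 93.5, 144 and 154 CPM in control and 93.5, 136 and 125 CPM in MaeaCsf1r-Cre replicates 1, 2 and 3. The alpha chains varied in opposite senses with the replicate number, since in both groups replicate 1 was the highest for *Itga4* and the lowest for *Itga6*. The log2 fold change was -0.086 for *Itga4* (95% interval -0.44 to 0.27) and -0.13 for *Itga6* (95% interval -0.64 to 0.38), and both turned positive after correction for transcript length.

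*Itgb2* (chromosome 10, 77530252 to 77565708, plus strand) encodes the beta2 chain of the leukocyte integrins. It was at 24.1, 19.5 and 21.0 CPM in control and 29.5, 39.6 and 27.0 CPM in MaeaCsf1r-Cre replicates 1, 2 and 3. Every MaeaCsf1r-Cre library was above every control library, as for 2.49% of all genes tested, and the means were 21.5 ± 2.32 and 32.0 ± 6.68 CPM (SD, n = 3 each), a ratio of 1.49. The log2 fold change was 0.54 (95% interval 0.11 to 0.96, standard error 0.18), which did not pass over all genes (adjusted p = 0.967 from limma). Without MaeaCsf1r-Cre replicate 2, the highest library, it was 0.38.

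The groups overlapped for its partner *Itgal*. *Itgal* (chromosome 7, 127296260 to 127335138, plus strand), the alpha chain of LFA-1, was at 13.04, 18.1 and 8.27 CPM in control and 8.35, 19.4 and 7.62 CPM in MaeaCsf1r-Cre replicates 1, 2 and 3. Replicate 2 was the highest in both groups. The log2 fold change was -0.20 (95% interval -1.09 to 0.70, adjusted p = 0.973 from limma), an interval that also holds the value of *Itgb2*.

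Beta2 integrins are carried by most mature leukocytes, so markers of such cells are given beside *Itgb2*. The 12 macrophage markers summed to 36.7 to 81.2 CPM in control and 6.29 to 58.7 CPM in MaeaCsf1r-Cre libraries. Most of the 58.7 CPM, in MaeaCsf1r-Cre replicate 3, was *Vcam1* (30.0 CPM), *Mrc1* (10.8 CPM) and *Axl* (10.1 CPM). Of the 12 markers 5 were lower in every MaeaCsf1r-Cre library, beside 6.06% of all genes tested. These were *C1qa*, *C1qb*, *C1qc*, *Csf1r* and *Cd5l*, of which *Cd5l* was too low to be tested. The 8 neutrophil markers summed to 27.9 to 219 and 4.58 to 114 CPM, most of it *Mpo*. *Ngp*, *Camp*, *Ltf*, *Lcn2* and *S100a9* stayed under 1 CPM in all 6 libraries. Of these, *Ngp* and *S100a9*, neither of them tested, were lower in every MaeaCsf1r-Cre library. The 8 T and NK cell markers summed to 43.0 to 66.3 and 43.3 to 87.6 CPM, most of it *Nkg7*, while *Cd3e*, *Cd3d*, *Cd3g*, *Cd8a* and *Trbc1* stayed under 1 CPM in all 6 libraries. For the 8 B cell markers the sums were 33.8 to 55.4 and 13.9 to 27.0 CPM, with *Cd79a*, *Ms4a1*, *Pax5*, *Ebf1* and *Vpreb1* under 1 CPM throughout and *Ms4a1* and *Pax5* listed at 0. The B cell sum was lower in every MaeaCsf1r-Cre library through *Ighm* (7.51 to 29.5 against 0.279 to 2.26 CPM), while *Cd79b* overlapped (16.3 to 27.2 against 12.9 to 23.7 CPM). No marker of these 4 lists was higher in every MaeaCsf1r-Cre library, beside 2.49% of all genes tested. Only 8 macrophage, 2 neutrophil, 3 T and NK cell and 2 B cell markers were tested, too few for this count to tell. Whether such cells had a part in the *Itgb2* values was not tested. In bulk RNA a lower share of a cell type and less RNA per cell cannot be told apart.

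**Figure D2:**
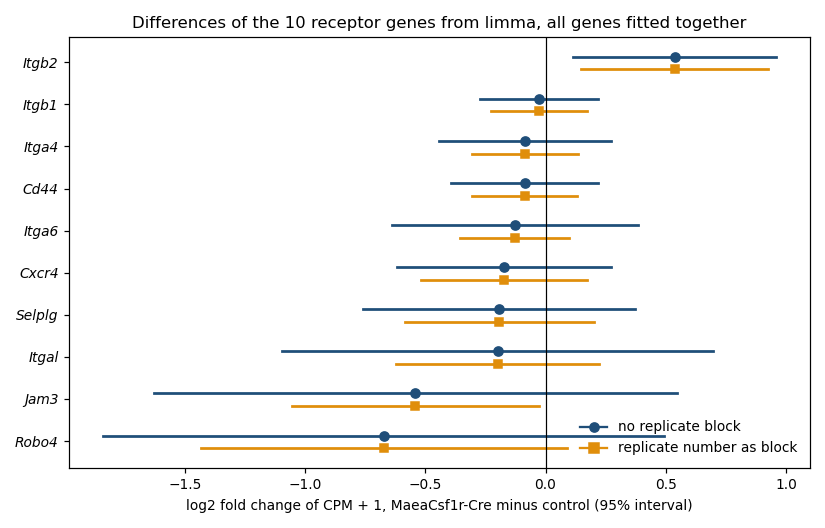
Log2 fold change of each receptor gene, MaeaCsf1r-Cre minus control on log2(CPM + 1), with its 95% interval from limma without (circles) and with (squares) the replicate number as a block. Without the block the interval leaves out 0 for *Itgb2* alone (0.11 to 0.96), and with it also for *Jam3* (-1.06 to -0.027), but no gene passes after adjustment over all genes tested.

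*Selplg* (chromosome 5, 113818536 to 113832644, minus strand) was at 104, 142 and 86.7 CPM in control and 68.4, 115 and 109 CPM in MaeaCsf1r-Cre replicates 1, 2 and 3. Its groups overlapped, with means of 111 ± 28.5 and 97.5 ± 25.3 CPM (SD, n = 3 each) and a fitted log2 difference of -0.19 (95% interval -0.76 to 0.37). *Cd44* (chromosome 2, 102811141 to 102901665, minus strand) was at 135, 130 and 114 CPM in control and 136, 111 and 111 CPM in MaeaCsf1r-Cre replicates 1, 2 and 3. *Cd44* varied little, 1.22 times between its lowest and highest library, and its log2 fold change of -0.087 (95% interval -0.39 to 0.22) turned positive after correction for transcript length. The values count all reads of the gene and so do not show which *Cd44* splice forms were present.

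*Jam3* (chromosome 9, 27097384 to 27155421, minus strand) was at 2.58, 6.61 and 12.1 CPM in control and 2.43, 3.99 and 5.75 CPM in MaeaCsf1r-Cre replicates 1, 2 and 3. Each MaeaCsf1r-Cre library was below the control library of the same number, by little in replicate 1, as were 23.5% of all genes tested in all 3 pairs. The spread between control libraries was larger than the difference of the means, which were 7.09 ± 4.76 and 4.06 ± 1.66 CPM (SD, n = 3 each). On the log2 scale the difference was -0.54 (95% interval -1.63 to 0.55), for which limma gave an adjusted p of 0.967, or 0.343 under the block. Without control replicate 3 it was -0.10, and without control replicate 1 it was -1.03. Of the exon bases of *Jam3*, 36.2% overlap *Gm48796* on the opposite strand, and the library kit does not record the strand, so reads from these bases cannot be assigned to one gene.

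*Robo4* (chromosome 9, 37401897 to 37415115, plus strand) was at 17.4, 24.97 and 24.0 CPM in control and 6.15, 11.1 and 33.1 CPM in MaeaCsf1r-Cre replicates 1, 2 and 3. MaeaCsf1r-Cre replicates 1 and 2 were below every control library and replicate 3 above every one, which made it the most variable of the 10 genes, 5.38 times between its lowest and highest library. Its log2 fold change was -0.67 (95% interval -1.84 to 0.49, adjusted p = 0.967 from limma). The value rested on single libraries, being -1.30 without MaeaCsf1r-Cre replicate 3 (adjusted p = 0.409) and -0.17 without MaeaCsf1r-Cre replicate 1 (adjusted p = 0.99998).

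Since *Robo4* is also an endothelial gene, endothelial markers are given beside it. The 8 endothelial markers summed to 113, 60.4 and 234 CPM in control and 36.7, 49.4 and 326 CPM in MaeaCsf1r-Cre replicates 1, 2 and 3. Both *Robo4* and these markers were highest in MaeaCsf1r-Cre replicate 3 and lowest in MaeaCsf1r-Cre replicate 1. The order differed in control, where replicate 2 had the most *Robo4* and the least endothelial signal. *Stab2* of sinusoidal endothelium was at 10.1, 0.202 and 41.3 CPM in control and 0.427, 0.363 and 66.2 CPM in MaeaCsf1r-Cre replicates 1, 2 and 3. The 10 HSC markers summed to 1144, 1835 and 1655 CPM in control and 798, 1167 and 1493 CPM in MaeaCsf1r-Cre replicates 1, 2 and 3. In both groups replicate 1 was lowest for the HSC markers, *Robo4* and *Jam3*. Whether endothelial RNA had a part in the *Robo4* values was not tested.

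**Figure D3:**
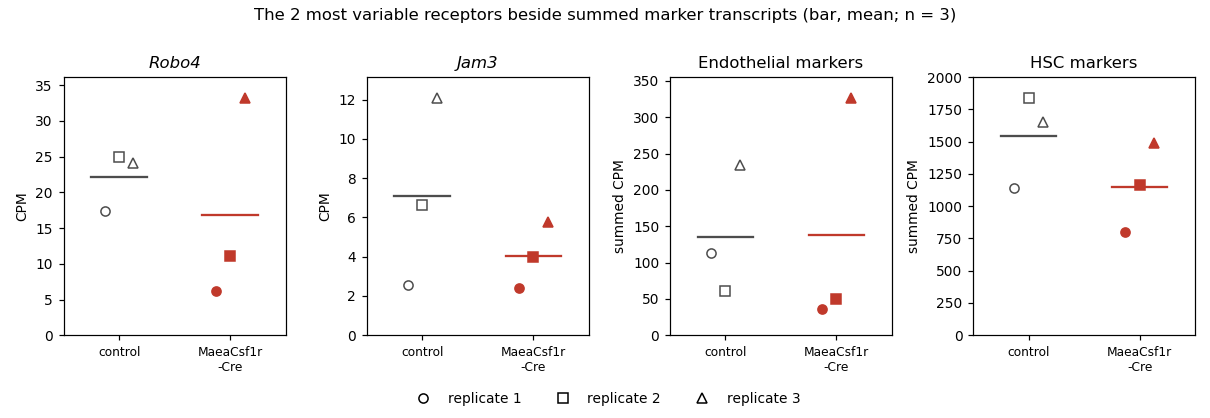
CPM of *Robo4* and *Jam3* beside the summed CPM of 8 endothelial and 10 HSC markers in each control (open symbols) and MaeaCsf1r-Cre (filled symbols) library, with the shape giving the replicate number and a bar for the mean (n = 3 each). MaeaCsf1r-Cre replicate 3 is the highest library for *Robo4* (33.1 CPM) and for the endothelial sum (326 CPM), and replicate 1 is lowest within each group for *Robo4*, *Jam3* and the HSC markers.

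The genes most like *Robo4* and *Jam3* across the 6 libraries were found by the root mean square difference of log2(CPM + 1), each gene centred on its own mean. For *Robo4*, whose own deviations had a root mean square of 0.76, these were *Mxra8* (difference 0.14) and *Cd200* (difference 0.15). *Mxra8* was at 3.76, 5.73 and 5.90 CPM in control and 0.673, 1.86 and 6.02 CPM in MaeaCsf1r-Cre replicates 1, 2 and 3, with the same drop in MaeaCsf1r-Cre replicates 1 and 2. For *Jam3*, at 0.67 itself, they were *Hmgn3* (difference 0.11) and *Shroom4* (difference 0.15). *Hmgn3* was at 9.46, 20.3 and 31.1 CPM in control and 8.91, 13.2 and 20.6 CPM in MaeaCsf1r-Cre replicates 1, 2 and 3. These were chosen among 12955 genes over only 6 libraries.

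Reads grow with transcript length, so levels of different genes were compared as CPM per kb of annotated exons. *Itgb1* stood first at 55.0 ± 2.97 CPM per kb in control HSCs (SD, n = 3), above every other receptor in every library. *Selplg* followed at 26.0 ± 6.67, *Cd44* at 18.7 ± 1.64 and *Itga6* at 14.5 ± 3.60 CPM per kb. *Cxcr4* was at 8.52 ± 0.752, *Itgb2* at 7.06 ± 0.760, *Itga4* at 6.11 ± 0.967 and *Robo4* at 4.18 ± 0.774 CPM per kb. *Jam3* at 2.21 ± 1.49 and *Itgal* at 1.9998 ± 0.749 CPM per kb were the lowest. In control libraries the ranges of neighbours in this order overlapped for *Cd44* and *Itga6*, for *Cxcr4* and *Itgb2*, for *Itgb2* and *Itga4*, for *Robo4* and *Jam3*, and for *Jam3* and *Itgal*. In MaeaCsf1r-Cre HSCs *Itgb2*, at 10.5 ± 2.19 CPM per kb, came before *Cxcr4* at 7.57 ± 1.51, and *Itgal* at 1.797 ± 1.01 before *Jam3* at 1.27 ± 0.520 (SD, n = 3 each). Dividing by the longest annotated transcript in place of all exons put *Itga6* before *Cd44* and *Itga4* before *Cxcr4* in control HSCs.

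RefSeq promoter windows of GRCm38.p6 were at hand for 5 of the 10 genes. They are shown for *Itgb1*, the steadiest receptor gene, for *Robo4*, the most variable, and for *Cxcr4*, read 5′ to 3′ on the strand of the gene and ending before its first annotated base. The windows are chr1:128592300-128592549 for *Cxcr4* (minus strand), chr8:128685404-128685653 for *Itgb1* and chr9:37401722-37401896 for *Robo4* (plus strand). Capitals mark matches on either strand to GGGCGG, the GC box bound by SP1. They also mark matches to TATAAA, which is the TATA box. The last motif searched was GCATGCGC, at the core of the NRF1 motif.
Cxcr4: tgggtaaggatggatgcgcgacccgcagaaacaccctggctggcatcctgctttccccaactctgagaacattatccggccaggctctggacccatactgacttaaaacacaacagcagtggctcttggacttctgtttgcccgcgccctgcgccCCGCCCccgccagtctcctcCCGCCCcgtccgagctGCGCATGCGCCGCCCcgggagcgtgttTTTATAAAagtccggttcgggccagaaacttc
Itgb1: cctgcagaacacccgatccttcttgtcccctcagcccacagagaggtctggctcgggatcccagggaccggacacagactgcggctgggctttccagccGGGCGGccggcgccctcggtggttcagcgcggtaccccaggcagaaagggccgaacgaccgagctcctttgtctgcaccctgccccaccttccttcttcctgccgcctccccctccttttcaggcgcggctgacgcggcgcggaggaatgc
Robo4: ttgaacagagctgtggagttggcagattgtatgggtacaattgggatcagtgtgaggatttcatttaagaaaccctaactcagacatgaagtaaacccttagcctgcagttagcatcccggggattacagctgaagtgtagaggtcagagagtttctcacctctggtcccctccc

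The *Cxcr4* and *Itgb1* windows of 250 bases held 19 and 21 CpG dinucleotides, against a median of 6 over all 32851 promoter windows of that length. The *Robo4* window of 175 bases held 1, against a median of 3. The *Cxcr4* window matched GGGCGG 3 times, and TATAAA and GCATGCGC each on both strands of 1 palindrome, the GCATGCGC palindrome sharing its last base with a GGGCGG match. The *Itgb1* window matched GGGCGG once and the *Robo4* window matched none of the 3. Of all windows of 250 bases, 32.7% held GGGCGG, 12.4% TATAAA and 2.26% GCATGCGC, and of all windows of 175 bases 20.2%, 8.22% and 1.03%. These matches describe letters and not bound sites, and the library data do not measure promoters.

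Alpha and beta chains reach the surface as pairs, so ratios of their reads within a library were compared, which do not depend on how libraries were scaled. *Itga4* reads per *Itgb1* read were 0.442, 0.337 and 0.361 in control and 0.396, 0.346 and 0.347 in MaeaCsf1r-Cre replicates 1, 2 and 3. *Itga6* reads per *Itgb1* read were 0.419, 0.676 and 0.650 in control and 0.409, 0.643 and 0.569 in MaeaCsf1r-Cre replicates 1, 2 and 3. For both, control replicate 1 and MaeaCsf1r-Cre replicate 1 stood apart from the other libraries of their group. *Itgal* reads per *Itgb2* read were 0.542, 0.926 and 0.394 in control and 0.283, 0.491 and 0.283 in MaeaCsf1r-Cre replicates 1, 2 and 3. This ratio was lower in MaeaCsf1r-Cre HSCs within each pair of the same number, though the groups overlapped, and the mean log2 difference was -0.78. Two-sided exact permutation tests gave p = 0.7, 0.5 and 0.2 for the 3 ratios (0.7, 0.7 and 0.6 after Benjamini-Hochberg adjustment). With 3 libraries a group such a test cannot go below 0.1. Sign flips within the pairs of the same number, also exact, gave p = 0.5, 0.25 and 0.25, where 3 pairs cannot go below 0.25.

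Per kb of exons, 3 chains made up most of the alpha chain transcripts that can pair with beta1. *Itga6* took 39.7 ± 7.38% of them in control and 39.0 ± 6.16% in MaeaCsf1r-Cre HSCs (SD, n = 3 each). *Itga5*, the alpha chain of the fibronectin receptor VLA-5, took 34.6 ± 5.57 and 38.4 ± 4.41%, and *Itga4* took 17.05 ± 3.73 and 17.2 ± 3.10% (SD, n = 3 each). Each of these shares differed between the groups by less than its SD. The summed alpha transcripts per *Itgb1* transcript, per kb, were 0.658 ± 0.0456 and 0.623 ± 0.0592 (SD, n = 3 each). The shares and the sums per beta chain, here and for beta2 below, depend on the length used. They were not worked out by longest transcript, which is 4.31 kb for *Itga6* against 9.03 kb of annotated exons. For *Itgb1* the lengths are 3.81 and 4.08 kb.

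For beta2 the partners were *Itgal*, *Itgam*, *Itgad* and *Itgax*. The last 3 mark myeloid cells, and *Itgad* was at 1.03, 0.252 and 0.671 CPM in control and listed at 0 in the 3 MaeaCsf1r-Cre libraries. *Itgam* was at 9.34, 5.93 and 5.43 CPM in control and 4.05, 3.96 and 5.73 CPM in MaeaCsf1r-Cre replicates 1, 2 and 3. Summed per kb, there were 0.520, 0.627 and 0.363 partner transcripts per *Itgb2* transcript in control and 0.215, 0.289 and 0.261 in MaeaCsf1r-Cre replicates 1, 2 and 3. The groups did not overlap in this sum, which was formed after the values were seen and was not tested. *Itgb2*, by which it is divided, was itself higher in every MaeaCsf1r-Cre library, so this is not a separate observation.

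**Figure D4:**
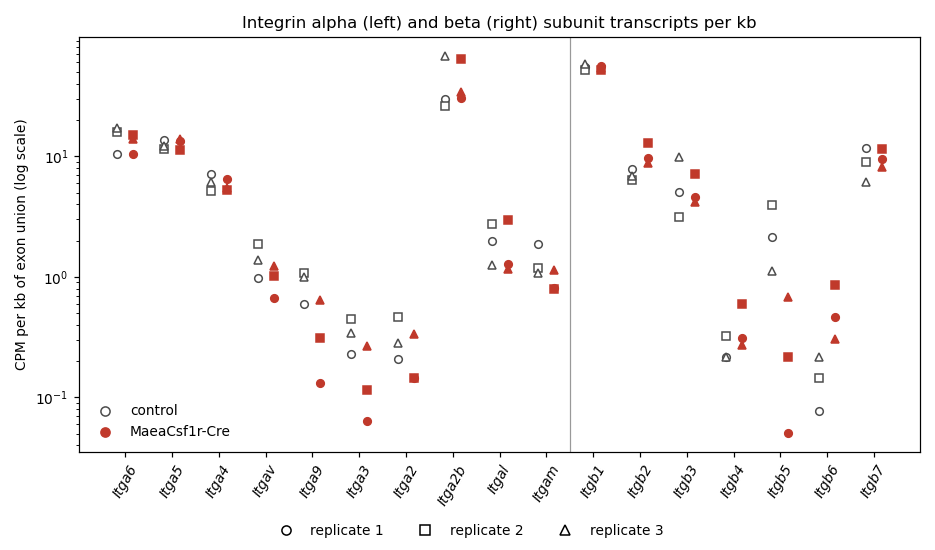
CPM per kb of annotated exons (log scale) of integrin alpha and beta subunit genes in each control (open symbols) and MaeaCsf1r-Cre (filled symbols) library, with the shape giving the replicate number. *Itgb1* libraries lie close together near 55.0 CPM per kb, *Itgb2* and *Itgb6* are higher and *Itgb5* lower in every MaeaCsf1r-Cre library, and *Itga2b* lies above *Itgb1* in control replicate 3 and MaeaCsf1r-Cre replicate 2.

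The rest of the homing machinery was read from 8 further lists, 158 genes in all, of which 127 were expressed enough to be tested. None passed over all genes in either limma fit, and 6 had an unadjusted p under 0.05, or 4.72% beside 3.99% of all genes tested. With the replicate block 33 did, or 26.0% beside 13.9%. The groups did not overlap for 13, or 10.2% beside 8.55%.

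Among the other integrin chains, *Itgb5*, a partner of alphav, was at 7.56, 14.0 and 3.94 CPM in control and 0.181, 0.770 and 2.41 CPM in MaeaCsf1r-Cre replicates 1, 2 and 3, lower in every MaeaCsf1r-Cre library. Its log2 fold change of -2.16 (standard error 0.49) had the largest size of the 127, and limma gave an adjusted p of 0.967, or 0.208 under the block. *Itgb6*, also a partner of alphav, was at 0.546, 1.03 and 1.55 CPM in control and 3.30, 6.11 and 2.19 CPM in MaeaCsf1r-Cre replicates 1, 2 and 3. It was higher in every MaeaCsf1r-Cre library, and the difference was 1.201 ± 0.34 (log2, standard error) with a limma adjusted p of 0.967. Their partner *Itgav* averaged 15.1 ± 4.83 and 10.5 ± 3.08 CPM in control and MaeaCsf1r-Cre HSCs (SD, n = 3 each). Of the 5 beta chains tested, *Itgb3*, *Itgb4* and *Itgb7* overlapped between the groups. The other 2, or 40.0% of these few chains, did not, beside 8.55% of all genes tested.

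Of 8 further alpha chains tested, 6 had a lower mean log2 value in MaeaCsf1r-Cre HSCs, as did 60.9% of all genes tested. The median log2 fold change of the 8 was -0.44 and turned to 0.044 when 10 CPM was required. The groups overlapped in all 8, where 8.55% of all genes tested did not overlap. *Itga9*, which pairs with beta1, was at 4.58, 8.25 and 7.65 CPM in control and 1.02, 2.38 and 4.98 CPM in MaeaCsf1r-Cre replicates 1, 2 and 3. It was lower in all 3 pairs, as were 23.5% of all genes tested (log2 difference -1.15, standard error 0.41, limma adjusted p of 0.967). *Itga3* had a log2 fold change of -0.70, *Itga2* of -0.40 and *Itga1* of -0.24, each averaging under 3 CPM, and *Itgam*, *Itgav* and *Itga9* completed the 6. *Itga5* at 61.3 ± 5.65 and 63.3 ± 7.17 CPM and *Itga2b*, the platelet integrin chain, at 226 ± 125 and 234 ± 102 CPM (SD, n = 3 each) differed by less than their spread.

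Of 23 ligands and binding partners, 12 were tested and the groups did not overlap for 1, or 8.33% beside 8.55% of all genes tested. This was *Lama5*, a laminin chain bound by VLA-6, at 3.49, 2.22 and 3.18 CPM in control and 1.62, 1.38 and 1.53 CPM in MaeaCsf1r-Cre replicates 1, 2 and 3. The difference was -0.64 on the log2 scale (standard error 0.22, limma adjusted p of 0.967). *Cxcl12* was at 4.15 CPM in control replicate 3 and at most 0.429 CPM elsewhere. *Vcam1* was at 28.5, 2.60 and 26.7 CPM in control and 0.525, 0 and 30.0 CPM in MaeaCsf1r-Cre replicates 1, 2 and 3. *Sele*, itself one of the endothelial markers summed above, was highest in MaeaCsf1r-Cre replicate 3 at 14.0 CPM. The P-selectin gene *Selp*, also of platelets, was at 36.5, 16.0 and 61.6 CPM in control and 40.4, 57.8 and 83.8 CPM in MaeaCsf1r-Cre replicates 1, 2 and 3. It was higher in all 3 pairs, as were 13.2% of all genes tested. *Jam2*, which encodes the JAM-B that JAM-C binds, was at 4.58, 6.36 and 7.83 CPM in control and 1.87, 5.23 and 6.83 CPM in MaeaCsf1r-Cre replicates 1, 2 and 3. It was lower in all 3 pairs, as were 23.5% of all genes tested. *Icam1* (log2 fold change -0.29), *Icam2* (0.058), *Icam4* (0.33), *Fn1* (-0.26), *Lamc1* (-0.34) and *Spp1* (0.34) overlapped between the groups. *Madcam1*, *Slit2* and *Lama4* reached 1 CPM in only 1 library each and were not tested.

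Around CXCR4, 17 of 21 signalling and desensitisation genes were tested and 6 did not overlap between the groups, 4 lower and 2 higher in every MaeaCsf1r-Cre library. This was 35.3% of the 17, beside 8.55% of all genes tested. *Adrbk1*, which encodes the receptor kinase GRK2, was at 150, 184 and 149 CPM in control and 106, 144 and 139 CPM in MaeaCsf1r-Cre replicates 1, 2 and 3, and *Arrb1*, a beta-arrestin, at 65.3 ± 5.41 and 53.9 ± 5.09 CPM. *Itch*, a ubiquitin ligase that marks CXCR4 for lysosomes, was at 36.1 ± 1.97 and 30.6 ± 2.22 CPM, and *Dpp4*, a protease that inactivates CXCL12, at 31.5 ± 9.78 and 21.2 ± 2.67 CPM (SD, n = 3 each). *Grk6*, another receptor kinase, was higher, at 108 ± 2.21 and 124 ± 10.3 CPM (SD, n = 3 each). *Cd74*, a receptor for MIF that can act with CXCR4 and the invariant chain of MHC class II, was at 59.8, 111 and 36.3 CPM in control and 120, 151 and 125 CPM in MaeaCsf1r-Cre replicates 1, 2 and 3. *Cd74* differed by 1.06 on the log2 scale (standard error 0.35), and limma gave an adjusted p of 0.967, or 0.198 under the block. The median log2 fold change of the 17 genes was -0.17 and came to -0.028 after correction for transcript length, and none passed over all genes tested.

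Integrin activation genes, which link integrins to talin, kindlin and actin, overlapped between the groups in all 28 tested, where 8.55% of all genes tested did not overlap. Their median log2 fold change of -0.12 came to -0.044 after correction for transcript length, and ranged from -0.28 without control replicate 1 to -0.023 without MaeaCsf1r-Cre replicate 1. The 3 with the smallest p were *Vav3* at -0.52, *Rassf5*, whose product RAPL activates LFA-1, at -0.37, and *Pxn*, which encodes paxillin, at -0.26 (log2 fold changes).

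Selectin ligand glycosylation genes, which make PSGL-1 able to bind, had a lower mean log2 value in MaeaCsf1r-Cre HSCs in 14 of 15, as did 60.9% of all genes tested. Their median log2 fold change of -0.11 came to -0.043 after correction for transcript length. *Fut4* was lower in every MaeaCsf1r-Cre library, at 6.96 ± 0.585 in control and 4.91 ± 1.28 CPM in MaeaCsf1r-Cre HSCs, and *Fut7*, the leukocyte fucosyltransferase, was at 21.2 ± 4.08 and 15.4 ± 6.56 CPM (SD, n = 3 each). *St3gal1* had a log2 fold change of -0.34. Of 31 other adhesion and migration receptors tested, *Sdc1* and *Cd164* were lower and *Cd53* higher in every MaeaCsf1r-Cre library, 9.68% of the 31 beside 8.55% of all genes tested. *Sdc1*, a heparan sulphate proteoglycan, was at 8.16, 10.1 and 9.61 CPM in control and 2.91, 4.87 and 6.25 CPM in MaeaCsf1r-Cre replicates 1, 2 and 3. The difference was -0.90 on the log2 scale (standard error 0.26), and limma gave an adjusted p of 0.967, or 0.208 under the block. *Cd164*, a sialomucin, was at 193 ± 7.18 and 166 ± 20.1 CPM, the tetraspanin *Cd53* at 33.3 ± 12.4 and 49.9 ± 7.90 CPM, and *Alcam* at 13.4 ± 3.02 and 7.91 ± 5.22 CPM (SD, n = 3 each).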

How the data were processed

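HSC RNA of 3 control and 3 MaeaCsf1r-Cre libraries was made into cDNA with SMART-Seq v4 and Nextera XT. The submitters' notes and methods name Trim Galore for trimming, STAR 2.5.3a with single-end reads on mm10, and Partek Flow for quantification against Ensembl transcripts. The authors deposited normalised CPM, to each of which 0.0001 had been added, and this was taken off again. Of the low values 70.1 to 77.2% lay within 0.05 of a whole read, so read counts were not recovered. Exon lengths and positions came from GENCODE M21 (GRCm38), later than the annotation used by the authors, and 44119 of 46959 rows matched by symbol.

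The test was limma 3.58.1 (R 4.3.3) on log2(CPM + 1) of genes reaching 1 CPM in 3 or more libraries, with a mean-variance trend and a two-sided threshold of 0.05 after Benjamini-Hochberg adjustment. The replicate numbers come from the labels. Same-numbered libraries deviated together across genes (Pearson's r of 0.627, 0.523 and 0.397), so the fit with the number as a block is given where it bears on a result. Genes named from the lists were up to 3 with the smallest p per list, those whose groups did not overlap, expressed ligands and expressed integrin chains. The genes and lists were chosen with earlier results of these data known, so no p was adjusted over a list alone. The alternatives are given in the closing section. The procedure was tested on simulated data. Python 3.11.15, numpy 2.4.6, pandas 2.3.3, scipy 1.17.1 and matplotlib 3.10.9 were also used. Some genes and a list among those examined are not reported here.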

Additional observations from a re-analysis of the deposited data

How the results depend on the processing

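None of the 10 receptor genes passed in any of the 15 alternative fits, where their lowest adjusted p was 0.241 (limma, length correction with the replicate block). Requiring 10 CPM left *Jam3* out and called 0 of all genes. Length correction with the replicate block called 12 of all genes, the block alone 1, and fits without 1 library each 0 to 3, against 1 in the reported fit. The median log2 fold change of the 10 was -0.021 after length correction and -0.089 after rescaling by median ratios. Length correction, with or without the block, turned *Cd44* to 0.047, *Itga4* to 0.099, *Itga6* to 0.025, *Itgb1* to 0.070 and *Itgb3* to 0.056, and took the median of the selectin glycosylation list to -0.043. Rescaling by median ratios turned *Itgb1* to 0.034, and quantile normalization turned *Itgb3* to 0.00800 and *Sele* to 0.00946. At 10 CPM the median of the other alpha chains was 0.044. The cause was not tested. The replicate block changed no call of a receptor gene or a listed gene, and for the ratios no exact test of this size could pass.

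Leaving out 1 library at a time gave a range that crossed 0 for *Itga4* (-0.20 to 0.024), *Itga6* (-0.35 to 0.031), *Itgb1* (-0.066 to 0.012), *Itgal* (-0.59 to 0.050) and *Selplg* (-0.35 to 0.041). It also did for *Icam1* (-0.55 to 0.051), *Icam2* (-0.040 to 0.17), *Itga1* (-1.08 to 0.18), *Itga2b* (-0.23 to 0.53), *Itga5* (-0.020 to 0.14), *Itgb3* (-0.45 to 0.36), *Itgb7* (-0.082 to 0.37) and *Sele* (-1.38 to 0.57). The log2 ratio difference ranged from -0.14 to 0.055 for *Itga4* to *Itgb1* and from -0.32 to 0.089 for *Itga6* to *Itgb1*, and the glycosylation median from -0.21 to -0.057. Divided by the longest transcript, control levels were 58.8 CPM per kb for *Itgb1*, 48.0 for *Selplg*, 30.3 for *Itga6*, 22.6 for *Cd44* and 8.74 for *Itga4*. With 3 libraries a group, only the intervals of *Itgb1*, *Itga4* and *Cd44* stay within 1.5 times in either direction.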
